A study of Homo sapiens with 6 samples.

Results

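The transcription factors that set lung and endoderm identity were examined by RNA-Seq in A549 cells after knock-down of KMT9a. The group has 8 genes chosen by name, NKX2-1, FOXA1, FOXA2, GATA6, HNF4A, CEBPA, SOX9 and TBX3, out of 23180 gene symbols in the counts table, and the listed transcript with most counts across the 6 samples stood for each gene. A549 is an established human lung adenocarcinoma cell line, labelled with genotype WT and passage 11 in every sample. In the design, 3 biological replicates were transfected with a control siRNA (siControl), 3 with an siRNA against KMT9a (siKMT9a), and RNA was taken 3 days after transfection. KMT9a is the catalytic subunit of a histone H4 methyltransferase and is encoded by N6AMT1. The model is 1 cell line, and these libraries hold 1 siRNA against the target.

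NKX2-1 is the homeodomain factor that marks lung and thyroid endoderm and drives surfactant genes. FOXA1 and FOXA2 are forkhead pioneer factors that open chromatin in endoderm, GATA6 is a zinc finger factor of early endoderm, HNF4A is a nuclear receptor of liver and gut, and CEBPA is a leucine zipper factor of maturing alveolar and liver cells. SOX9 is an HMG box factor of distal lung progenitors and cartilage, and TBX3 is a T-box repressor of limb, mammary gland, heart and lung development.

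With siKMT9a, FOXA2, GATA6, HNF4A, SOX9 and TBX3 rose, CEBPA fell, and FOXA1 did not pass the test. SOX9 rose 7.64-fold and TBX3 3.20-fold. NKX2-1 was close to the detection floor in both groups and was not tested. Of the 7 genes tested, 6 had an adjusted p under 0.05 in the quasi-likelihood test of edgeR, adjusted by Benjamini-Hochberg across 13877 genes, where 75.6% of all genes tested did. In this comparison 5 of the 7 were higher, against 37.1% of all genes, and 1 was lower, against 38.5% of all genes. The stricter threshold of the study's methods (p under 1e-08, and a log2 fold change beyond 0.26 in size) was passed by 5 of the 7 and by 24.2% of all genes. That count was 3 without siKMT9a replicate 2, where 16.4% of all genes passed, and also 3 when the fit took a replicate block, where 16.9% did. In 6 of the 7 the groups did not overlap, as in 77.0% of all genes tested. The median log2 fold change was 0.73 over the 7 and -0.01 over all genes. The factors were chosen with earlier results of these data known, so these comparisons do not test for an excess.

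Counts summed over 1 transcript per gene were 15551778 to 18568639.5 per siControl library and 13740097 to 19832395.5 per siKMT9a library. N6AMT1, the targeted gene, had 10.2, 10.9 and 11.4 CPM (the count relative to the TMM-scaled library size) with siControl and 2.87, 3.22 and 3.35 with siKMT9a. The replicates are separate samples of 1 line by their labels, so p-values weigh the group difference against the spread between these cultures. The edgeR estimate of that spread also drew on the other genes tested. In bulk RNA, fewer cells with a transcript and less of it per cell cannot be told apart.

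**Figure D1:**
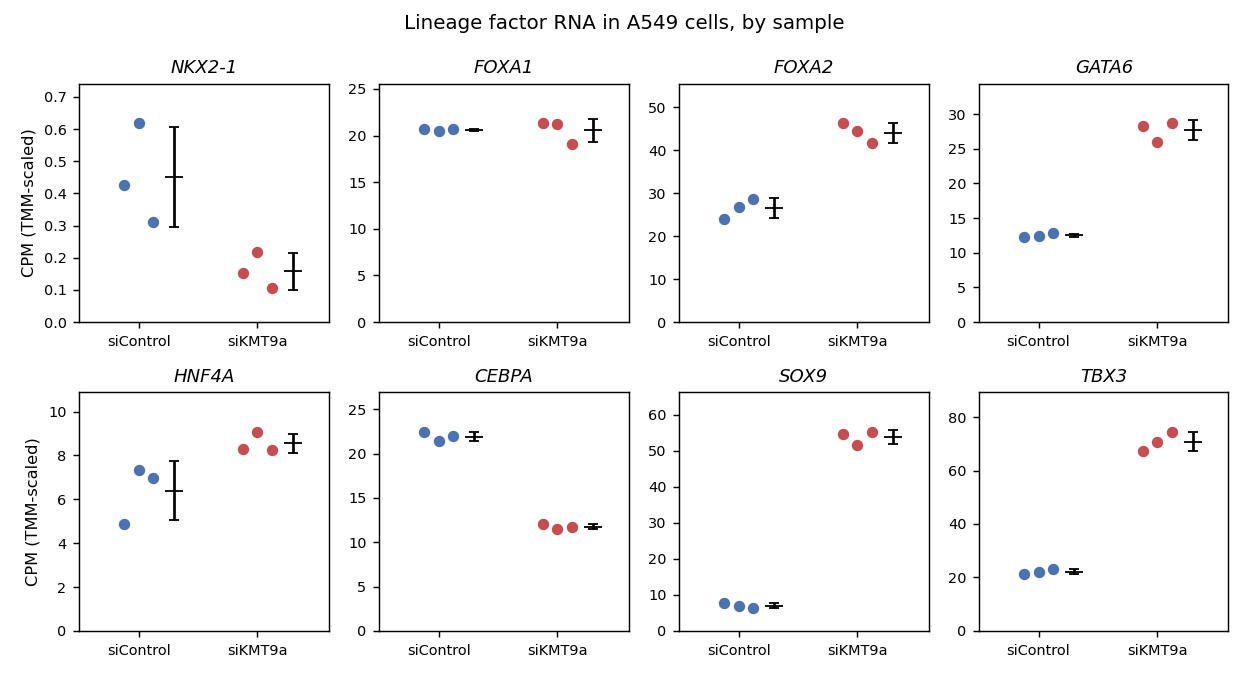
CPM of the 8 lineage factors in each sample (points, linear axes from 0) with the mean and SD of 3 samples per group (black). SOX9 and TBX3 show the widest gap between groups, FOXA1 overlaps, and NKX2-1 stays below 0.7 CPM.

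The forkhead pair FOXA1 and FOXA2 did not move together. Exon numbers here and below are those of the canonical transcript in the GRCh37 annotation, which can differ from the listed transcript. FOXA1, listed as NM_004496 on chromosome 14 of hg19 from 38059191 to 38064489 (minus strand, 2 exons in the GRCh37 annotation), had 20.7, 20.4 and 20.7 CPM with siControl. With siKMT9a it had 21.3, 21.3 and 19.2 CPM. The 3 siControl values lay inside the siKMT9a range. Its log2 fold change was -0.0089 (standard error 0.07, 95% interval -0.165 to 0.147, edgeR adjusted p = 0.919), and of all genes tested 99.0% had a larger absolute change. FOXA2, listed as NM_021784 on chromosome 20 from 22561642 to 22565101 (minus strand, 2 exons), had 24.1, 26.9 and 28.6 CPM with siControl and 46.3, 44.4 and 41.6 with siKMT9a. All siKMT9a samples were above all siControl samples. FOXA2 rose by 0.73 on the log2 scale (standard error 0.07, adjusted p = 1.73e-08 in edgeR). Its other listed transcript, NM_153675, shares nearly all of its reads and had a log2 fold change of 0.74.

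Within a sample, the log2 ratio of FOXA1 to FOXA2 counts does not depend on library scaling. It was -0.22, -0.39 and -0.47 with siControl and -1.12, -1.06 and -1.12 with siKMT9a. The difference was -0.74, with no overlap, and the two-sided exact permutation p was 0.1, the smallest that 3 against 3 allows. Of the 21 such pairs among the 7 genes tested, 20 had no overlap between groups, each with an exact permutation p of 0.1 (0.105 after Benjamini-Hochberg adjustment over the pairs). The share of non-overlapping ratios among other gene pairs was not computed. The exception was FOXA2 to HNF4A, which differed by 0.30 with an exact permutation p of 0.2. The widest difference was CEBPA to SOX9, from 1.64 ± 0.12 (SD, n = 3) to -2.19 ± 0.04 (SD, n = 3) on the log2 scale.

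GATA6, listed as NM_005257 on chromosome 18 of hg19 from 19749416 to 19782227 (plus strand, 7 exons), had 12.3, 12.5 and 12.8 CPM with siControl. With siKMT9a it had 28.3, 26.0 and 28.7 CPM. The groups were far apart beside a spread of under 3 CPM within either. GATA6 rose by 1.15 on the log2 scale (standard error 0.08, adjusted p = 6.93e-11 in edgeR), a 2.21-fold increase.

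HNF4A has 6 listed transcripts on chromosome 20, which begin at 43029924 or at 42984441 (hg19, plus strand), and a microRNA gene, MIR3646, overlaps its span. Its main transcript NM_000457 had 4.89, 7.35 and 6.97 CPM with siControl and 8.31, 9.06 and 8.27 with siKMT9a. The groups did not overlap, and siControl replicate 1 was the lowest of the 6. HNF4A rose by 0.42 on the log2 scale (standard error 0.13, adjusted p = 0.00861 in edgeR) and did not pass the study's threshold. Without siControl replicate 1 the log2 fold change was 0.27 with an adjusted p of 0.052, so that library decides the call.

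The HNF4A transcripts differ in start and end, and reads specific to either start were not separated. NM_175914 and NM_001030003, listed from 42984441, had log2 fold changes of 0.65 (adjusted p = 0.0328 in edgeR over all transcripts) and 0.66 (adjusted p = 0.0293). For NM_175914 the counts were 14, 41 and 38.5 with siControl and 35.5, 40.5 and 48 with siKMT9a. Those ranges overlap, and siControl replicate 1 was again the lowest. NM_001030004, also listed from 42984441, and NM_178850, listed from 43029924, had 0.44 (adjusted p = 0.168) and 0.43 (adjusted p = 0.173). Transcripts of 1 gene share exons and reads, so these values are not independent.

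CEBPA, a single-exon gene listed as NM_004364 on chromosome 19 of hg19 from 33790840 to 33793430 (minus strand), had 22.4, 21.4 and 21.9 CPM with siControl. With siKMT9a it had 12.1, 11.5 and 11.7 CPM. The 2 groups were separated by over 9 CPM. CEBPA fell by 0.90 on the log2 scale (standard error 0.08, adjusted p = 4.47e-09 in edgeR), and it was the only one of the 7 that fell in this fit. With per-sample offsets for GC content and transcript length the value was -0.75.

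SOX9, listed as NM_000346 on chromosome 17 of hg19 from 70117161 to 70122560 (plus strand, 3 exons), had 7.75, 6.92 and 6.45 CPM with siControl. With siKMT9a it had 54.6, 51.6 and 55.2 CPM. Every siKMT9a library held several times the SOX9 level of any siControl library. SOX9 rose by 2.93 on the log2 scale (standard error 0.08, 95% interval 2.77 to 3.10, adjusted p = 1.47e-16 in edgeR). Of all genes tested, 0.836% had a larger absolute log2 fold change.

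TBX3, listed as NM_016569 on chromosome 12 of hg19 from 115108059 to 115121969 (minus strand, 7 exons), had 21.2, 22.0 and 23.2 CPM with siControl. With siKMT9a it had 67.3, 70.7 and 74.4 CPM. The groups did not overlap. TBX3 rose by 1.68 on the log2 scale (standard error 0.06, adjusted p = 1.23e-14 in edgeR), and 6.67% of genes tested had a larger absolute change. Its other transcript NM_005996, with 1.68, counts mostly the same reads.

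NKX2-1, the lung lineage factor itself, was barely detected. It is listed as NM_003317 on chromosome 14 of hg19 from 36985604 to 36988903 (minus strand, 3 exons). Its estimated counts were 8, 10 and 6 with siControl and 2, 3 and 2.5 with siKMT9a. After rounding to whole counts (2.5 to 2), the levels were 0.42, 0.62 and 0.31 CPM against 0.15, 0.22 and 0.10 CPM. For comparison, 3 counts in a library corresponded to 0.156 to 0.227 CPM. The 3 siKMT9a values were below the 3 siControl values, with a two-sided exact permutation p of 0.1. The ratio of the summed whole counts, scaled to library size, was 0.344 (exact 95% interval 0.125 to 0.822, counting error only). The gene did not pass the filter on low counts. With no filter, edgeR called it, at -1.48 on the log2 scale (standard error 0.63, adjusted p = 0.0323).

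**Figure D2:**
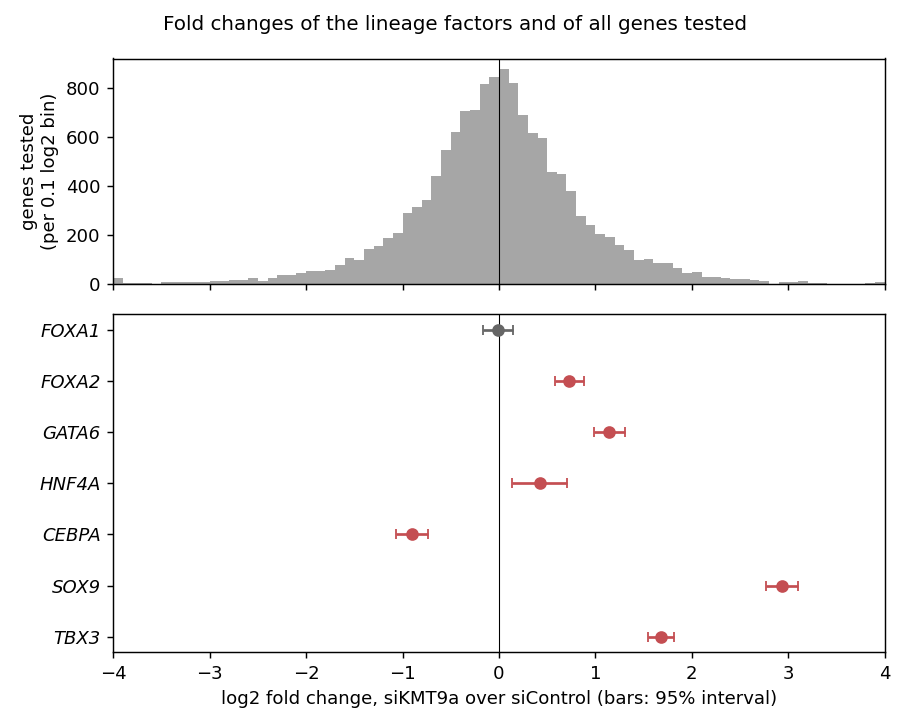
Log2 fold changes (siKMT9a over siControl) of the 7 lineage factors tested with 95% intervals (lower panel) below the distribution of the 13877 genes tested in bins of 0.1 (upper panel, values beyond 4 drawn in the end bins). SOX9 lies in the far right tail at 2.93, CEBPA lies left of 0, and the interval of FOXA1 spans 0.

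Divided by transcript length, the levels of the factors can be ordered within each group. With siControl the order in CPM per kilobase was FOXA2 (11.0), CEBPA (8.46), FOXA1 (6.63), TBX3 (4.65), GATA6 (3.60), HNF4A (1.99), SOX9 (1.79) and NKX2-1 (0.194). HNF4A and SOX9 overlapped there, and the other neighbours in that order did not. With siKMT9a the order was FOXA2 (18.2), TBX3 (14.9), SOX9 (13.7), GATA6 (7.95), FOXA1 (6.62), CEBPA (4.54), HNF4A (2.65) and NKX2-1 (0.0679), and no neighbours overlapped. FOXA2 was highest in both groups. SOX9 moved from the seventh place to the third and CEBPA from the second to the sixth. These are transcript-length levels of 1 transcript each, so a difference in isoform use would change them.

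**Figure D3:**
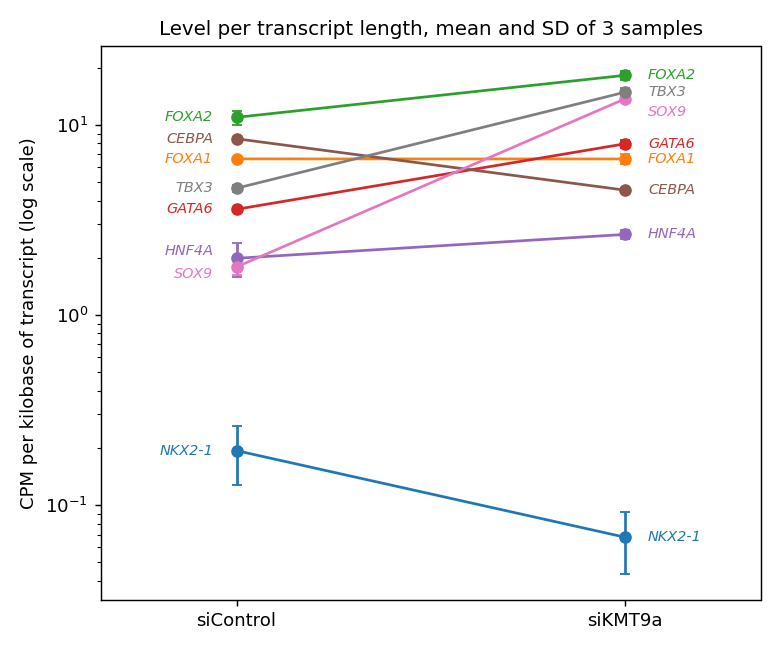
Mean level per kilobase of transcript (log axis) of the 8 factors with siControl and siKMT9a, with SD over 3 samples. The lines of SOX9 and TBX3 both cross those of FOXA1 and CEBPA, SOX9 also crosses HNF4A and GATA6, and FOXA2 stays on top.

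For 5 of the 8 factors a promoter sequence could be matched by symbol in RefSeq (GRCh38.p14, 250 bases before to 50 after the start): NKX2-1, FOXA1, GATA6, HNF4A and CEBPA. FOXA2, SOX9 and TBX3 were not matched. Shown are a factor that fell (CEBPA), one that did not pass the test (FOXA1) and those that rose (GATA6 and HNF4A). Capitals mark matches, on either strand, to these motifs. The core promoter motifs were TATAAA of the TATA box, CCAAT of the CCAAT box and GGGCGG of the GC box. The factor motifs were TGTTTAC for forkhead factors, AGATAA for GATA factors, ACAATG for SOX factors, TCACACC for T-box factors, TTGCGCAA for CEBP factors and CAAAGTCCA for HNF4 factors. A match on the minus strand appears as its reverse complement.
CEBPA: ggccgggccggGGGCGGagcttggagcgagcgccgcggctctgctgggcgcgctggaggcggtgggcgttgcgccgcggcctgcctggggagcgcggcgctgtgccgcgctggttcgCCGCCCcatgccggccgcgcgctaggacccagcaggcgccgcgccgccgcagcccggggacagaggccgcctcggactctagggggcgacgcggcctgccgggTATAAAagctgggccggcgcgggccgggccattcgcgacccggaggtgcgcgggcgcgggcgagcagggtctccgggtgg
FOXA1: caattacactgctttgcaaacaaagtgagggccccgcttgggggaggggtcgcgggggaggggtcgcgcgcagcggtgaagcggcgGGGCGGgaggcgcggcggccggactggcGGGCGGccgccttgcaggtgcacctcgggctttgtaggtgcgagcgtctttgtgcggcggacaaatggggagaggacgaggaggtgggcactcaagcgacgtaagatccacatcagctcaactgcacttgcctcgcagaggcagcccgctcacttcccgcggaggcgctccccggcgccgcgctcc
GATA6: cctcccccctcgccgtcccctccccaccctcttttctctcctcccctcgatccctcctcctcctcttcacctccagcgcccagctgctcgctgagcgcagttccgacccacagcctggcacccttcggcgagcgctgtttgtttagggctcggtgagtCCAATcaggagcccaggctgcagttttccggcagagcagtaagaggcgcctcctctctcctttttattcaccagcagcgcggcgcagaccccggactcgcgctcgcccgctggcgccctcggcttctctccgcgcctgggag
HNF4A: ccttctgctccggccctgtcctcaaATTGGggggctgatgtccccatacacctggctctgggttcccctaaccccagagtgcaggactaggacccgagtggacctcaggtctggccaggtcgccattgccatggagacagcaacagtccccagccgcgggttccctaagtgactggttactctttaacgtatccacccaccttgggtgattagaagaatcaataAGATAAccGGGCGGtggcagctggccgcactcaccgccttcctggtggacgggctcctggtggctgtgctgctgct
The CEBPA promoter (chr19:33302485-33302784, minus strand) holds TATAAA from base -30 and GC boxes, and 50 CpG dinucleotides, more than 98.7% of all 35116 promoters had. The FOXA1 promoter (chr14:37595200-37595499, minus strand) holds 34 CpG and only GC boxes. GATA6 (chr18:22169339-22169638, plus strand) holds a CCAAT box from base -92 and 25 CpG. The HNF4A promoter (chr20:44355449-44355748, plus strand) matches GRCh37 chromosome 20 from 42984089 to 42984388, at the upstream transcripts, and its start lies 45.6 kb from that of NM_000457, the transcript measured. It holds AGATAA from base -26, a GC box from base -18, a CCAAT box and 11 CpG, and no 2 matches in these promoters overlap. Over all promoters, TATAAA is in 11.5%, CCAAT in 34.6%, GGGCGG in 45.0% and AGATAA in 10.3%. The other motifs are in 3.42% (TGTTTAC), 10.8% (ACAATG), 3.45% (TCACACC), 0.151% (TTGCGCAA) and 0.384% (CAAAGTCCA) of all promoters, and in none of the 5.

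The paralogs of the factors were compared gene by gene. Of 48 related factors listed, 34 were tested, 16 rose and 10 fell, and their median log2 fold change was 0.15 against -0.01 over all genes, of which 37.1% rose and 38.5% fell. The GATA family moved apart. While GATA6 rose, GATA3 fell by 1.27, GATA5 by 1.27 and GATA4 by 1.00 on the log2 scale (adjusted p = 4.16e-08, 2.48e-05 and 6.81e-06 in edgeR), and GATA2 had -0.31 (adjusted p = 0.0557). GATA3 had 15.8, 13.3 and 13.8 CPM with siControl and 5.90, 4.39 and 7.11 with siKMT9a, without overlap. Within a sample, the log2 ratio of GATA6 to GATA3 went from -0.19 ± 0.15 (SD, n = 3) to 2.27 ± 0.28 (SD, n = 3), and GATA6 to GATA4 from 0.93 ± 0.05 to 3.12 ± 0.29. Each had a two-sided exact permutation p of 0.1.

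In the other families, FOXA3 had a log2 fold change of -0.05 (adjusted p = 0.841 in edgeR). HNF4G rose by 0.48 on the log2 scale (adjusted p = 0.0285 in edgeR), a call lost with library size alone (0.0801), with DESeq2 (0.108) and without any one of siControl replicate 2 or 3 or siKMT9a replicate 2 or 3. CEBPD fell by 0.59 and CEBPG, on the same arm of chromosome 19 and 71.1 kb from CEBPA, fell by 0.46, while CEBPB rose by 0.27 on the log2 scale. SOX2 and SOX4 each rose by 0.94, and SOX17 fell by 0.45 (adjusted p = 0.0182), which was not called with GC and length offsets (0.0852), with DESeq2, without siControl replicate 2 or without siKMT9a replicate 3. TBX2 fell by 0.33 (adjusted p = 0.00629), and the log2 ratio of TBX3 to TBX2 went from 0.80 ± 0.11 (SD, n = 3) to 2.79 ± 0.07 (SD, n = 3). Of 14 ratios of a lineage factor to a paralog, 13 did not overlap between groups, and HNF4A to HNF4G did. Of single genes tested, 77.0% did not overlap, and the share for ratios of other gene pairs was not computed.

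**Figure D4:**
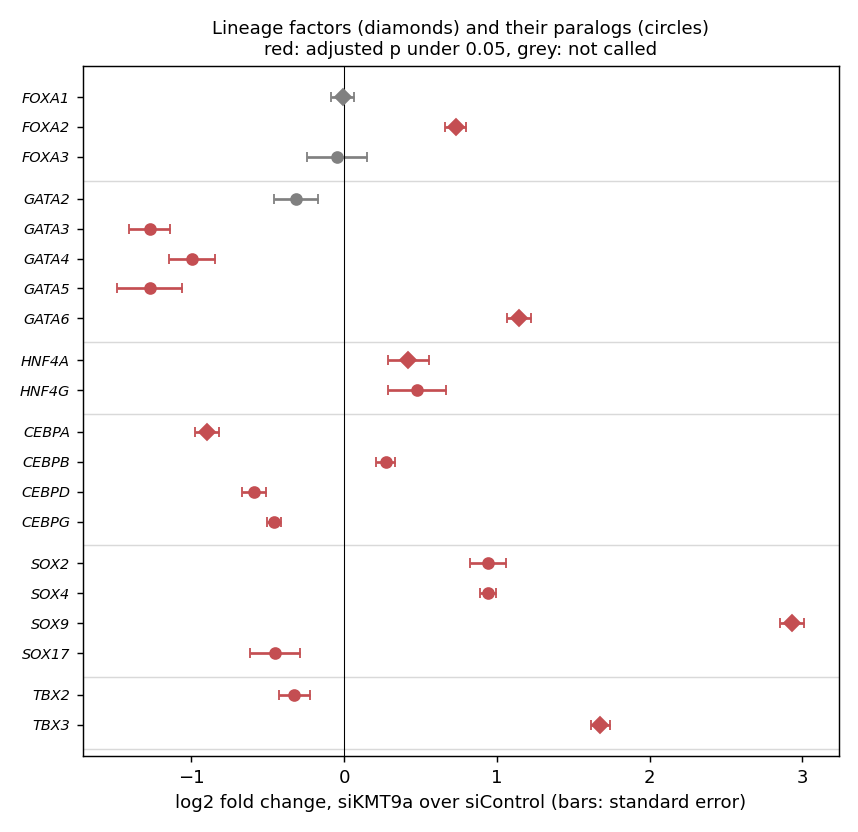
Log2 fold changes with standard errors of the lineage factors (diamonds) and their paralogs (circles), with those of adjusted p under 0.05 in red. GATA6 stands alone on the right of its family, SOX9 lies furthest right of the SOX genes, and TBX2 and TBX3 lie on opposite sides of 0.

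Among the other factors of endoderm, the forkhead repressor FOXP1 rose by 1.68, the nuclear receptor NR5A2 by 1.43 and KLF4 by 1.29 on the log2 scale. FOXP1 had 7.91, 6.05 and 6.76 CPM with siControl and 22.5, 21.8 and 22.3 with siKMT9a. HHEX, a homeobox factor of foregut, rose by 1.14 and MYRF by 1.23. NKX2-5, a cardiac homeodomain relative of NKX2-1, fell by 1.19 (adjusted p = 2.5e-09 in edgeR). PDX1, the pancreatic homeodomain factor, had 55 counts in all with siControl and 3 with siKMT9a, a ratio of 0.0643 after scaling to library size (exact 95% interval 0.0129 to 0.198, counting error only).

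The genes of surfactant and distal airway, a list that includes targets of NKX2-1, FOXA, CEBPA and GATA6, were mostly near or at 0. Of 25 listed, 9 were tested, 3 rose and 5 fell, beside 37.1% and 38.5% of all genes tested. The list had a median log2 fold change of -0.47. SFTPA1 and SFTPA2 had 0 counts in all 6 libraries, which allows up to 3 counts in each, and SFTPB and SFTPC had 2 counts and 1 count in all. CTSH, the cathepsin that processes surfactant protein B, fell by 1.81 (adjusted p = 1.4e-12 in edgeR), LAMP3 of lamellar bodies by 0.64 and the lipid enzyme FASN by 0.47 on the log2 scale. ABCA3, the lipid transporter of lamellar bodies, rose by 0.75, the phospholipid enzyme LPCAT1 by 0.59 and the kinase LRRK2 by 0.44. LRRK2 was not called with GC and length offsets (0.15, adjusted p = 0.088).

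The liver, gut and gastric genes, a list that includes targets of HNF4A, FOXA and CEBPA, held as many that rose as fell. Of 49 in the table, 17 were tested, 7 rose and 7 fell, with a median of -0.24, and 37.1% of all genes rose and 38.5% fell. The fibrinogen chains, which are secreted as 1 complex, split: FGB rose by 1.99, while FGG fell by 1.69 and FGA by 0.62 on the log2 scale (adjusted p = 7.42e-12, 4.7e-09 and 1.33e-05 in edgeR). FGB had 7.75, 5.06 and 6.76 CPM with siControl and 24.3, 25.0 and 28.9 with siKMT9a. ANXA13, an annexin of gut epithelium, rose by 2.79 from 0.298 to 2.07 CPM, and the plasma protein APOH rose by 1.12. AGR2, a disulfide isomerase of mucus-secreting cells, fell by 0.95 from 597.7 to 309.7 CPM. AMBP fell by 0.64 (adjusted p = 0.00797), a call lost without siControl replicate 1 (adjusted p = 0.0694) or siKMT9a replicate 3 (0.0545).

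Of 18 genes that SOX9 or TBX3 is known to act on, 10 were tested. At an adjusted p under 0.05 in edgeR 5 rose and 0 fell, beside 37.1% and 38.5% of all genes tested. The targets tested had a median of 0.32. Among them the count that fell was also 0 at an unadjusted p under 0.05 and 0 in DESeq2. With GC and length offsets 8 of the 10 were called, where 76.7% of all genes tested were. Of those 8, 7 rose and 1, PAX6, fell (-0.40, adjusted p = 0.0282). ACKR3 was called lower with library size alone (-0.28, adjusted p = 0.0143) and without siKMT9a replicate 3 (-0.27, adjusted p = 0.0204), and with no filter 1 target was called lower. UCP1 did not pass the filter on low counts. It had 0.42, 0.99 and 0.47 CPM with siControl and 0 in all siKMT9a libraries. COL11A2, a cartilage collagen that SOX9 activates, rose by 2.01, from 1.22, 1.30 and 1.56 CPM to 5.82, 4.68 and 5.91. GJA1 (connexin 43) rose by 1.94 and CDH1 (E-cadherin) by 1.34, and both are known as genes that TBX3 represses. CDKN2A, also known as repressed by TBX3, had 0 counts in every library. CDKN1A had 0.04 (adjusted p = 0.511), and was called higher with GC and length offsets (0.18, adjusted p = 3e-04 in edgeR).

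Of 25 cofactors and regulators, 22 were tested, 17 rose and 4 fell, where 37.1% of all genes rose and 38.5% fell. The median was 0.67 against -0.01 over all genes. ZFPM2, which binds GATA factors, rose by 1.93, the corepressor TLE1 by 1.44 and TRIB1 by 1.31 on the log2 scale. TRIB1 and TRIB2 are pseudokinases known to direct CEBPA protein to degradation, and TRIB2 fell by 2.02 (adjusted p = 5.25e-07 in edgeR) from 3.53 to 0.837 CPM. DDIT3, which pairs with CEBP factors and blocks their DNA binding, fell by 0.76 and TRIB3 by 0.75. CREBBP and EP300, acetyltransferases used by many of the factors, rose by 0.77 and 0.68.

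Of 39 signalling genes of lung endoderm, 34 were tested, 19 rose and 8 fell, with a median of 0.26. Over all genes tested, 37.1% rose and 38.5% fell. GLI2, a transcription factor of the hedgehog pathway, rose by 2.39, from 8.12, 7.29 and 7.90 CPM to 39.8, 37.8 and 44.3. The FGF signal inhibitor SPRY2 rose by 1.73, the hedgehog-binding HHIP by 1.63 and the hedgehog ligand SHH by 1.31 on the log2 scale. GLI1 and PTCH1 of the hedgehog pathway fell by 0.64 and 0.71, so the hedgehog genes of the list moved both ways. The BMP receptor BMPR1A fell by 1.40 and its ligand BMP4 by 1.25, and BMP2 rose by 1.00. The retinoic acid hydroxylase CYP26A1 fell by 0.80 (adjusted p = 0.00721 in edgeR), a call lost without siControl replicate 2 (0.0504) or siKMT9a replicate 3 (0.0741).

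Of 13 RNAs listed as neighbours of the factors, 7 were in the counts table, and those did not follow the factors in every case. NKX2-1-AS1, GATA6-AS1, HNF4A-AS1, SOX9-AS1, TBX3-AS1 and TTC6 were absent under these symbols, so they were not measured. LINC00261, 2.36 kb from FOXA2, fell by 0.67 on the log2 scale (adjusted p = 0.00118 in edgeR) while FOXA2 rose, from 3.66, 4.69 and 4.21 CPM to 2.27, 2.70 and 2.83. CEBPA-AS1, 0.333 kb from CEBPA, fell by 1.53 (adjusted p = 7.95e-05), as CEBPA did. LINC00511, 472 kb from SOX9, fell by 2.28 (adjusted p = 5.25e-06) while SOX9 rose. MIPOL1, 38.7 kb from FOXA1, had -0.04 (adjusted p = 0.815), and NKX2-8, 60.3 kb from NKX2-1, had 0.24 (adjusted p = 0.27). NKX2-8 was called higher with GC and length offsets (0.49, adjusted p = 0.0164) and without siControl replicate 3 (0.53, adjusted p = 0.025). SFTA3, 2.61 kb from NKX2-1, had 2 counts in all, and TBX5-AS1, whose distance to a factor was not measured, had 0. Of the 5 tested, 0 rose and 3 fell in edgeR, beside 37.1% and 38.5% of all genes tested. Among these 5, 0 rose at an unadjusted p under 0.05 or in DESeq2. CEBPA-AS1 and LINC00511 had under 10 counts in some libraries. Whether counting used the strand is not stated, and no span with a distance given here overlaps that of its factor.

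**Figure D5:**
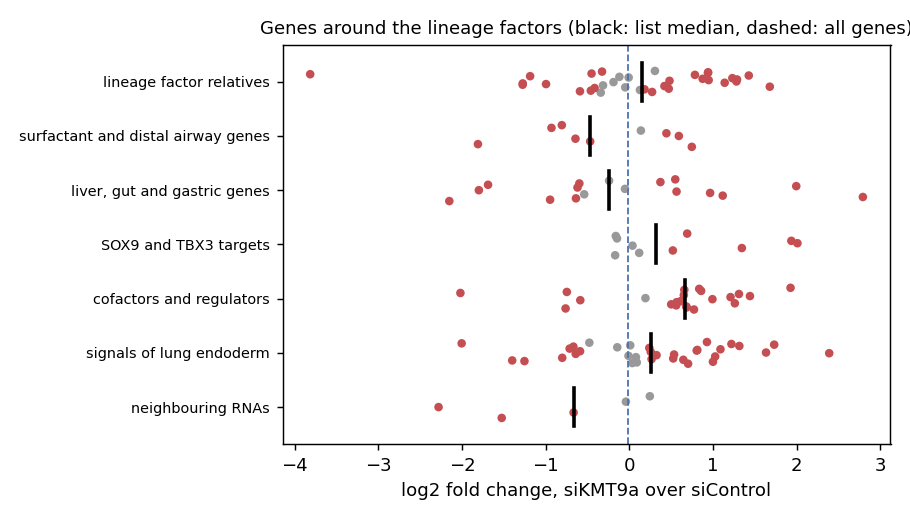
Log2 fold change of every gene tested in the 7 lists (red: adjusted p under 0.05 in edgeR), with the list median (black) and the median of all genes tested (dashed). Cofactors and regulators have the highest median, 0.67, and the neighbouring RNAs the lowest, -0.67.

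By a Euclidean distance of centred log2 CPM over the 6 samples, the genes nearest to each tested factor were listed as a description. Among the 3 nearest to SOX9 were TOP2A (0.204) and ZFP36L2 (0.224), and nearest to TBX3 were TLE4 (0.0865), ATF1 (0.0988) and ANGEL2 (0.11). For GATA6 they were SGCD (0.0735), DLL4 (0.0839) and NUMB (0.0857), and for FOXA2 SIPA1L1 (0.0621), BBC3 (0.0738) and RAVER1 (0.0849). For HNF4A they were CENPH (0.133), CDK10 (0.148) and CDKL1 (0.19), and for FOXA1 SLC35A4 (0.032), CCDC58 (0.0368) and OST4 (0.0443). SYNGR2 (0.0423) and CCDC53 (0.0432) were among the 3 nearest to CEBPA.

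The cells were checked against marker lists. All 7 epithelial markers had a mean of at least 1 CPM, and their summed level was 4403 to 4887 CPM with siControl and 2944 to 3132 with siKMT9a. In that list KRT8 fell by 1.28, KRT18 by 0.75, KRT19 by 0.68 and EPCAM by 2.76 on the log2 scale, CDH1 rose by 1.34, and KRT7 had 0.01. Of the 9 alveolar type II markers 2 had a mean of at least 1 CPM. The 7 type I markers sum to 63.6 to 71.2 CPM with siControl and 376.9 to 392.1 with siKMT9a, nearly all CAV1, with AQP5 and HOPX at 0. The leukocyte list summed to 81.5 to 88.3 against 28.9 to 30.2 CPM, mostly CD68, with CD3E and MS4A1 at 0. The fibroblast list summed to 7.41 to 9.35 against 3.80 to 4.60 CPM with COL1A2 at 0, the ciliated list to 5.43 to 6.21 against 4.60 to 5.06, and the basal airway list to 1.42 to 1.59 against 1.46 to 2.20 with KRT5 and KRT14 at 0. The club list reached at most 0.0731 CPM and the endothelial list at most 1.05 CPM. The part of these marker levels in the results for the lineage factors was not tested.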

How the data were processed

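RNA-Seq was analysed for 6 A549 samples, 3 siControl and 3 siKMT9a. Per the labels and the paper's methods, the authors used STAR (build hg19) and HOMER, and the deposited values are estimated counts per RefSeq transcript without normalization. The fold change (ratio), p-value and adjusted value that the authors deposited from their own edgeR comparison were not used. Counting options, strand and library type are not given in the sources used here. Of 38767 rows, 1182 without a symbol and counts were left out.

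For each symbol the transcript with most counts over all samples was kept. The estimated counts, of which 36.4% were not whole, were rounded, and edgeR 4.0.16 was run under R 4.3.3 (TMM, filterByExpr, quasi-likelihood F test, two-sided, Benjamini-Hochberg over 13877 genes). The standard error is the size of the log2 fold change over the square root of F. The fit was tested on simulated data. Ratios within a sample were compared by exact permutation after adding 0.5 counts, and those to paralogs were chosen after values were seen. The factors and gene lists were chosen with earlier results of these data known. Named genes were the factors, N6AMT1, at least the 3 largest called changes in each direction of each list with a mean of at least 1 CPM, the neighbouring RNAs, and the 3 nearest genes of each factor. Some results under this rule are not reported here. Further list genes were named after their values were seen. GC content was known for 98.4% of genes tested. Alternatives were RLE factors, library size alone, other filters (none, or 10 counts in every sample), DESeq2 1.42.0, the likelihood-ratio test, every transcript as a feature, the replicate block, GC and length offsets, and each sample left out. Depth of 13740097 to 19832395.5 counts per library puts 3 counts at 0.156 to 0.227 CPM.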

Additional observations from a re-analysis of the deposited data

How the results depend on the processing

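The directions and calls of FOXA2, GATA6, CEBPA, SOX9 and TBX3 held under all 16 alternatives, with log2 fold changes of 0.62 to 0.87 for FOXA2, 1.04 to 1.19 for GATA6, 2.79 to 3.03 for SOX9 and 1.49 to 1.73 for TBX3, while CEBPA decreased by 0.75 to 1.00. FOXA1 was never called, and its sign turned with RLE factors (0.0031), no filter (0.0026) and DESeq2 (0.0056), and ranged from -0.032 to 0.0501 with 1 sample left out. HNF4A ranged from 0.27 to 0.53 with 1 sample left out. With library size alone the median of all genes was -0.119 in place of -0.014, and no called factor changed direction or lost its call. With no filter, NKX2-1 was also called, for 7 factors in all, where 59.5% of all genes were called. The factors past the study's threshold numbered 3 with the replicate block and 3 to 5 with 1 sample left out. Called SOX9 and TBX3 targets numbered 8 of the 10 tested with GC and length offsets, where 76.7% of all genes were called. They also numbered 8 with the replicate block added to the offsets, where 76.4% of all genes were called. Called neighbouring RNAs numbered 1 with at least 10 counts in every sample, where 76.2% of all genes were called. The correlations of same-numbered samples' deviations were -0.12, 0.04 and -0.11. No shared variation was seen, which does not show whether those samples were handled together. The replicate block moved the genes called from 10492 to 10229. All genes past the study's threshold numbered 3357, against 6070 with no filter, 5962 with the likelihood-ratio test, 5903 with the replicate block and offsets together, 2342 with the replicate block alone and 2326 to 4085 with 1 sample left out. The difference of the FOXA1 to FOXA2 log2 ratio was -0.79 to -0.67 with 1 sample left out. At this depth a change of NKX2-1 is limited by counting.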
